A study of Mus musculus with 12 samples.

Results

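The regions described here are the ESRRB ChIP-seq regions around 6 genes of the neural lineage in mouse embryonic stem cells, Pax6, Sox1, Pax3, Olig2, Nes and Ncam1. A region of the deposited count table was taken when its nearest protein-coding gene in the RefSeq annotation was one of the 6 and its centre lay inside that gene or within 100 kb of it. This gave 61 of 86201 regions, with 11 at Pax6, 18 at Sox1, 16 at Pax3, 2 at Olig2, 1 at Nes and 13 at Ncam1. Among the regions of the table, positions alone decided which were taken. The table itself holds only regions in a peak list of these lines, so ESRRB signal decided its content, and a peak in either line was enough. The genes were selected on measured values, namely the fold changes and calls of ESRRB signal in the comparison below. Large increases at Ncam1 and Pax6 were already known. All fold changes and calls at these genes are therefore given as a description of the libraries and support nothing beyond it.

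The lines compared are NanogKO:Esrrb:Nanog, called "with Nanog" below, and NanogKO:Esrrb, called "without Nanog". Both lack the endogenous Nanog gene by their titles and both carry Esrrb in their names, and all samples bear the same cell line label, N{delta}:cE:iN. The sources used here do not give how Nanog and Esrrb are driven or whether a line is a single clone. Culture was in serum and leukaemia inhibitory factor, with no treatment. Each line has 3 ESRRB ChIP libraries, A, B and C in the table. Counts in regions summed to 6689166, 8382646 and 7834773 in libraries A, B and C with Nanog, against 2734338, 3600055 and 5193707 without Nanog, so the same CPM rests on more reads with Nanog. No label ties the libraries to separate cultures, and the spread behind the tests may thus be technical. ChIP signal is not expression, so the stem cell label could not be checked against marker genes here.

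ESRRB is an orphan nuclear receptor that binds DNA at the estrogen-related receptor element and helps to sustain the self-renewal of embryonic stem cells together with NANOG, OCT4 and SOX2. The genes described here act in neural differentiation. PAX6 and SOX1 are transcription factors of the early neural plate and of neural progenitors, PAX3 acts in the dorsal neural tube and neural crest, and OLIG2 acts in progenitors of motor neurons and oligodendrocytes. Nestin, the product of Nes, is the intermediate filament of neural progenitors, and NCAM1 is a cell adhesion molecule of the immunoglobulin superfamily on neurons. Expression of these genes was not measured here, so whether they were silent in these cells is not known.

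Gene starts give the reference points for the regions below, and RefSeq windows around starts (build GRCm38.p6, the assembly that mm10 names) were found for Pax6, which has 2, and for Sox1, Nes and Olig2, all on the plus strand. No region overlapped any of these 5 windows. Both Pax6 windows are shown because the called regions of that gene are placed by their distance from these starts. The Sox1 window is shown because its nearest region is the closest of all, 375 bp away. Each sequence runs from 250 bases before the start to 30 bases from the start on. In the Pax6 sequences, at chr2:105668646-105668945 and chr2:105682213-105682512 for the whole windows, capitals mark the bases from the start on. In the Sox1 sequence, whose whole window is chr8:12395269-12395568, capitals mark an octamer of POU factors.
Pax6 first start: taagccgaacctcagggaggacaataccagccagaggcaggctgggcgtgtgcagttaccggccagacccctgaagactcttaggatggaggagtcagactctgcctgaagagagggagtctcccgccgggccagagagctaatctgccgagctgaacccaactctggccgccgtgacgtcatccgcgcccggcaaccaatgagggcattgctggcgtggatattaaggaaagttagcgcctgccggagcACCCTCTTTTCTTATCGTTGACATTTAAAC
Pax6 second start: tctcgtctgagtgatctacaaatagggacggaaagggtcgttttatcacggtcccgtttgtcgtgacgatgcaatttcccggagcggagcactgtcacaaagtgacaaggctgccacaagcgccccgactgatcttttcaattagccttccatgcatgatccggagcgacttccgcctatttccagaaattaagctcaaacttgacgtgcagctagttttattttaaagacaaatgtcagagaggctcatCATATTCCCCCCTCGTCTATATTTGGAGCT
Sox1 start: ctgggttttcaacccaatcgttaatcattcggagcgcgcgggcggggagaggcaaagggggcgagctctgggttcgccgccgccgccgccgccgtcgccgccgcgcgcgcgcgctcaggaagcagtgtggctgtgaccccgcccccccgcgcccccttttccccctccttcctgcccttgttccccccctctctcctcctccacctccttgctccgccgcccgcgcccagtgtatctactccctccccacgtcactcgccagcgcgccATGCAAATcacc
The letters TCAAGGTCA, the estrogen-related receptor element, occurred on neither strand of the 5 windows of 300 bases, against 0.423% of 32851 RefSeq windows of that length. Its core AAGGTCA, which lies within the longer element, was also in 0 of the 5 windows, against 4.72% of all. The octamer ATGCAAAT was in 1 of the 5, at bases 19 to 26 of the Sox1 transcript, and in 1.74% of all windows. The sequences of the ESRRB regions themselves were not used here, so these counts say nothing of the elements under the signal.

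Of the 61 regions, 59 passed the filter on low counts, and 2 short regions of Sox1 did not. Signal is given in CPM, the counts scaled to the TMM-adjusted library total. A region was called at a Benjamini-Hochberg adjusted p below 0.05 over all 84892 tested regions in the quasi-likelihood test of edgeR, and fold changes are with over without Nanog. With Nanog, 9 of the 59 regions were called higher and 3 lower. Among all tested regions, 9.42% were called higher and 9.78% lower. Of the 9 higher calls, 7 were at least 2-fold, and 4.38% of all tested regions were called higher by that much. Every region of the table lies in at least 1 of the deposited peak lists of the lines, and these shares differ by list. In the list with Nanog alone, 10.8% of all tested regions were called higher and 1.92% lower. In both lists these were 7.4% and 20.8%, and in the list without Nanog alone 0% and 79.5%. The genes were picked with this contrast in view, so no reading is drawn from the shares. The lower calls were the less stable, with 0 left on leaving out library A or B with Nanog or library C without Nanog. Among the 9 higher regions, 5 were at Ncam1, 3 at Pax6 and 1 at Pax3. The 3 lower regions were at Pax3, with 2, and at Sox1, with 1. No region (0) was called at Nes or Olig2, and none of theirs had an unadjusted p under 0.05 in edgeR or was called by DESeq2. The median log2 fold change was 0.12 over the 59 regions, with quartiles of -0.16 and 0.47, against -0.01 over all tested regions, with quartiles of -0.33 and 0.32. Bulk ChIP cannot tell apart more ESRRB at a site in each cell and more cells with the site bound.

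Pax6 spans 29.5 kb on chromosome 2 (chr2:105668896-105698410), and 6 of its 11 regions lay inside it. The 3 higher calls were all inside the gene. The strongest region of the gene by mean log-CPM, at chr2:105677283-105678092, held 64.0, 61.7 and 64.0 CPM with Nanog in libraries A, B and C, against 23.1, 21.3 and 23.9 CPM without Nanog. The libraries of each line lay close together and the lines were far apart. Its log2 fold change was 1.47 ± 0.13 (SE), the 1207th largest of the 84892 regions, while its signal stood at percentile 95.1. This region lies 8.79 kb downstream of the first start and 4.78 kb upstream of the second, whose sequences are printed above.

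A weaker region, at chr2:105680508-105680899 and 1.76 kb upstream of the second Pax6 start, held 6.12, 6.13 and 7.64 CPM with Nanog and 2.24, 1.4 and 3.53 CPM without Nanog. These values rest on 42, 52 and 60 reads with Nanog, against 6, 5 and 18 reads without. The log2 fold change was 1.39 ± 0.32 (SE), close to that of the strongest region, and the lines did not overlap. The third call, at chr2:105691144-105692158, lies 9.19 kb downstream of the second start and had 19.2, 22.8 and 22.3 CPM with Nanog against 10.1, 17.1 and 13.3 CPM without. Its log2 fold change of 0.65 ± 0.19 (SE) was past the threshold, but not on leaving out library B or C with Nanog or library A without Nanog.

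The next Pax6 region, 263 bp farther on at chr2:105692422-105693061, was not called, with 20.1, 22.3 and 19.5 CPM with Nanog against 18.6, 14.0 and 22.9 CPM without. Adjacent regions of this gene thus had log2 fold changes of 0.65 and 0.14. The region nearest the first start, 0.913 kb upstream of it, held 4.96, 6.37 and 4.33 CPM with Nanog and 5.22, 3.65 and 7.06 CPM without Nanog, and the ranges of the lines overlapped. The other 4 regions upstream of the gene, out to 75.2 kb, had log2 fold changes from -0.34 to 0.34 and no call. At the region 74.7 kb upstream, library B without Nanog stood apart with 10.7 CPM, against 2.98 and 2.94 CPM in libraries A and C of that line. Summed over the 11 regions, Pax6 held 144, 150 and 149 CPM with Nanog and 85.4, 95.9 and 95.7 CPM without Nanog. The strongest region made up 42.8% of the sum with Nanog and 24.7% of it without.

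Sox1 is a short gene of 4.04 kb on chromosome 8 (chr8:12395519-12399555) with 18 regions, a number reached by 3.33% of the 16050 protein-coding genes with a region, where the median was 3. Only 1 of them lay inside the gene, and 12 stood between 40.3 and 84.2 kb past its end. Several are pieces of 1 signal, since joining regions less than 1000 bp apart left 14, and the shortest were 5 and 58 bp wide. The 2 regions left out of the test were these, with 4 to 8 reads per library at the wider one with Nanog.

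The strongest Sox1 region, at chr8:12477542-12478483 and 78.5 kb past the gene, held 40.8, 31.6 and 43.7 CPM with Nanog and 32.4, 27.5 and 36.7 CPM without Nanog. The ranges overlapped and the log2 fold change was 0.25 ± 0.15 (SE). The next strongest, 40.3 kb past the gene, had 25.8, 32.7 and 30.1 CPM with Nanog, against 32.8, 30.01 and 27.3 CPM without, a log2 fold change of -0.01 ± 0.15 (SE). Per kb of region, these held 41.1 and 41.8 CPM with Nanog, against 34.2 and 42.5 CPM without, in the range of the strongest regions of the other genes. The lines overlapped at both of these regions, and neither was called.

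The single call at Sox1 was a weak region at chr8:12461279-12461467, 61.8 kb past the gene, with 3.35, 2.83 and 2.68 CPM with Nanog and 4.85, 5.05 and 5.49 CPM without Nanog. The lines did not overlap, and the log2 fold change was -0.81 ± 0.28 (SE). The call was lost with DESeq2, with column totals, with a loess offset, with thinned libraries and when any library was left out, other than library B without Nanog, while the log2 fold change stayed between -0.90 and -0.74 in the 13 fits that tested it. No Sox1 region (0) was called higher by edgeR or DESeq2, although 4 had an unadjusted p under 0.05 in edgeR. Around the start itself, the region 0.717 kb upstream held 15, 18 and 15 reads with Nanog, against 0, 4 and 10 reads without, and was not called. The region inside the gene had 5.25, 4.84 and 5.10 CPM with Nanog and 3.36, 2.24 and 3.92 CPM without Nanog. Its lines did not overlap, and it was not called, with a log2 fold change of 0.64 ± 0.30 (SE).

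Pax3 spans 95.9 kb on chromosome 1 (chr1:78101267-78197136) and held 16 regions, 12 of them inside the gene. RefSeq windows around starts were not found for Pax3 or Ncam1, so positions at these genes are counted from the lower-numbered end. Calls at Pax3 went both ways. The higher one, at +66.8 kb (chr1:78167860-78168372), held 15.7, 18.9 and 24.7 CPM with Nanog, against 1.49, 4.21 and 6.47 CPM without Nanog. That is 108, 160 and 194 reads with Nanog and 4, 15 and 33 reads without, and all libraries with Nanog were above all those without. The log2 fold change was 2.14 ± 0.27 (SE), the 239th largest in the table, with a signal at percentile 60.8.

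Both lower calls of Pax3 were smaller. At +42.4 kb (chr1:78143508-78143797) signal was 5.39, 4.95 and 6.75 CPM with Nanog and 7.08, 8.69 and 11.6 CPM without Nanog, a log2 fold change of -0.72 ± 0.25 (SE). At +103.6 kb, 7.69 kb past the gene (chr1:78204659-78204997), it was 6.12, 6.25 and 7.52 CPM with Nanog and 9.32, 11.2 and 12.6 CPM without Nanog, a log2 fold change of -0.76 ± 0.22 (SE). Both calls were lost with thinned libraries and on leaving out library A or B with Nanog or library C without Nanog, and the call at +42.4 kb was also lost with DESeq2 and the loess offset. The strongest region, at +60.0 kb (chr1:78160852-78161600), held 19.4, 22.8 and 20.9 CPM with Nanog and 27.6, 24.1 and 24.3 CPM without. It lay lower with Nanog with no overlap, and it was not called, with a log2 fold change of -0.26 ± 0.16 (SE). The region nearest an end of the gene, at +4.09 kb, had 7.58, 5.19 and 7.52 CPM with Nanog and 8.58, 9.26 and 7.84 CPM without Nanog. It also lay lower with no overlap, and it was not called. Over its 16 regions the gene had a median log2 fold change of -0.25, and its summed signal was 122 ± 9.67 CPM with Nanog and 123 ± 1.59 CPM without Nanog (SD, n = 3 per line). These sums include the increase at +66.8 kb, and the other 15 regions summed to 97.4, 100.6 and 107 CPM with Nanog, against 119, 119 and 117 CPM without Nanog. The region left out was picked as the most increased, which by itself lowers the sum with Nanog more than the sum without.

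Olig2 and Nes had few regions. Those of Olig2 lay 28.9 and 3.42 kb upstream of its start on chromosome 16 (gene at chr16:91225550-91228677). The nearer and stronger one, at chr16:91221912-91222345, held 6.71, 9.08 and 6.75 CPM with Nanog and 6.71, 8.69 and 9.02 CPM without Nanog, a log2 fold change of -0.14 ± 0.24 (SE). At the farther one the log2 fold change was -0.33 ± 0.27 (SE), and the lines overlapped at both. The only Nes region, inside the gene 3.43 kb from its start (chr3:87974093-87974958), was strong, at percentile 92.01 of signal. It held 34.6, 30.3 and 29.3 CPM with Nanog, against 32.1, 24.1 and 23.7 CPM without Nanog, with overlapping lines and a log2 fold change of 0.26 ± 0.15 (SE). It was in both deposited peak lists.

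Ncam1 is the longest of the 6 genes, 297 kb on chromosome 9 (chr9:49502129-49799393), and 12 of its 13 regions lay inside it. It held 5 higher calls and 0 lower calls by edgeR and by DESeq2, with 6 and 1 at an unadjusted p under 0.05 in edgeR. The largest change of the 59 tested regions was at +151.9 kb (chr9:49653718-49654346), with 32.4, 39.5 and 44.2 CPM with Nanog, against 4.10, 5.61 and 2.75 CPM without Nanog. In reads this was 222, 335 and 347 with Nanog and 11, 20 and 14 without. The log2 fold change was 3.27 ± 0.22 (SE), the 15th largest of the table. Per kb, the level was 61.5 CPM with Nanog, which is like that of the strongest region of the gene, and 6.60 CPM without Nanog.

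The other 4 calls at Ncam1 lay farther toward the higher-numbered end of the gene. At +249.6 kb (chr9:49751293-49752077) signal was 43.6, 55.0 and 48.8 CPM with Nanog and 30.6, 25.8 and 24.9 CPM without Nanog, a log2 fold change of 0.88 ± 0.14 (SE). Near the upper end of the gene, at +294.6 kb (chr9:49796484-49797043), it was 23.9, 29.4 and 25.2 CPM with Nanog and 9.69, 11.5 and 9.61 CPM without Nanog, a log2 fold change of 1.35 ± 0.18 (SE). These changes are several times their SE, and the lines did not overlap at either region. Weaker regions at +163.4 and +269.9 kb had log2 fold changes of 1.17 ± 0.29 and 1.10 ± 0.33 (SE). The first held 6.71, 7.43 and 5.99 CPM with Nanog against 1.86, 3.09 and 3.53 CPM without. The second held 5.10, 8.37 and 6.75 CPM with Nanog against 1.12, 5.05 and 2.94 CPM without. The call at +163.4 kb was lost with thinned libraries, and that at +269.9 kb also on leaving out library B with Nanog or library A or C without Nanog.

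Between these calls stood strong Ncam1 regions with little change. The strongest, at +210.8 kb (chr9:49712471-49713323), held 49.4, 53.4 and 56.6 CPM with Nanog and 44.4, 46.6 and 55.9 CPM without Nanog, a log2 fold change of 0.11 ± 0.12 (SE) with overlapping lines. At +227.4 kb the signal was 24.5, 31.3 and 30.7 CPM with Nanog and 31.3, 38.4 and 36.9 CPM without. That region was lower with Nanog in all libraries, but narrowly, at 31.25 CPM in library B with Nanog against 31.32 CPM in library A without. It was not called, with a log2 fold change of -0.31 ± 0.14 (SE). Within 1 gene the log2 fold change thus ran from -0.31 to 3.27. Summed over its regions, Ncam1 held 249 ± 24.8 CPM with Nanog and 168 ± 11.6 CPM without Nanog (SD, n = 3 per line), a ratio of 1.48.

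**Figure D1:**
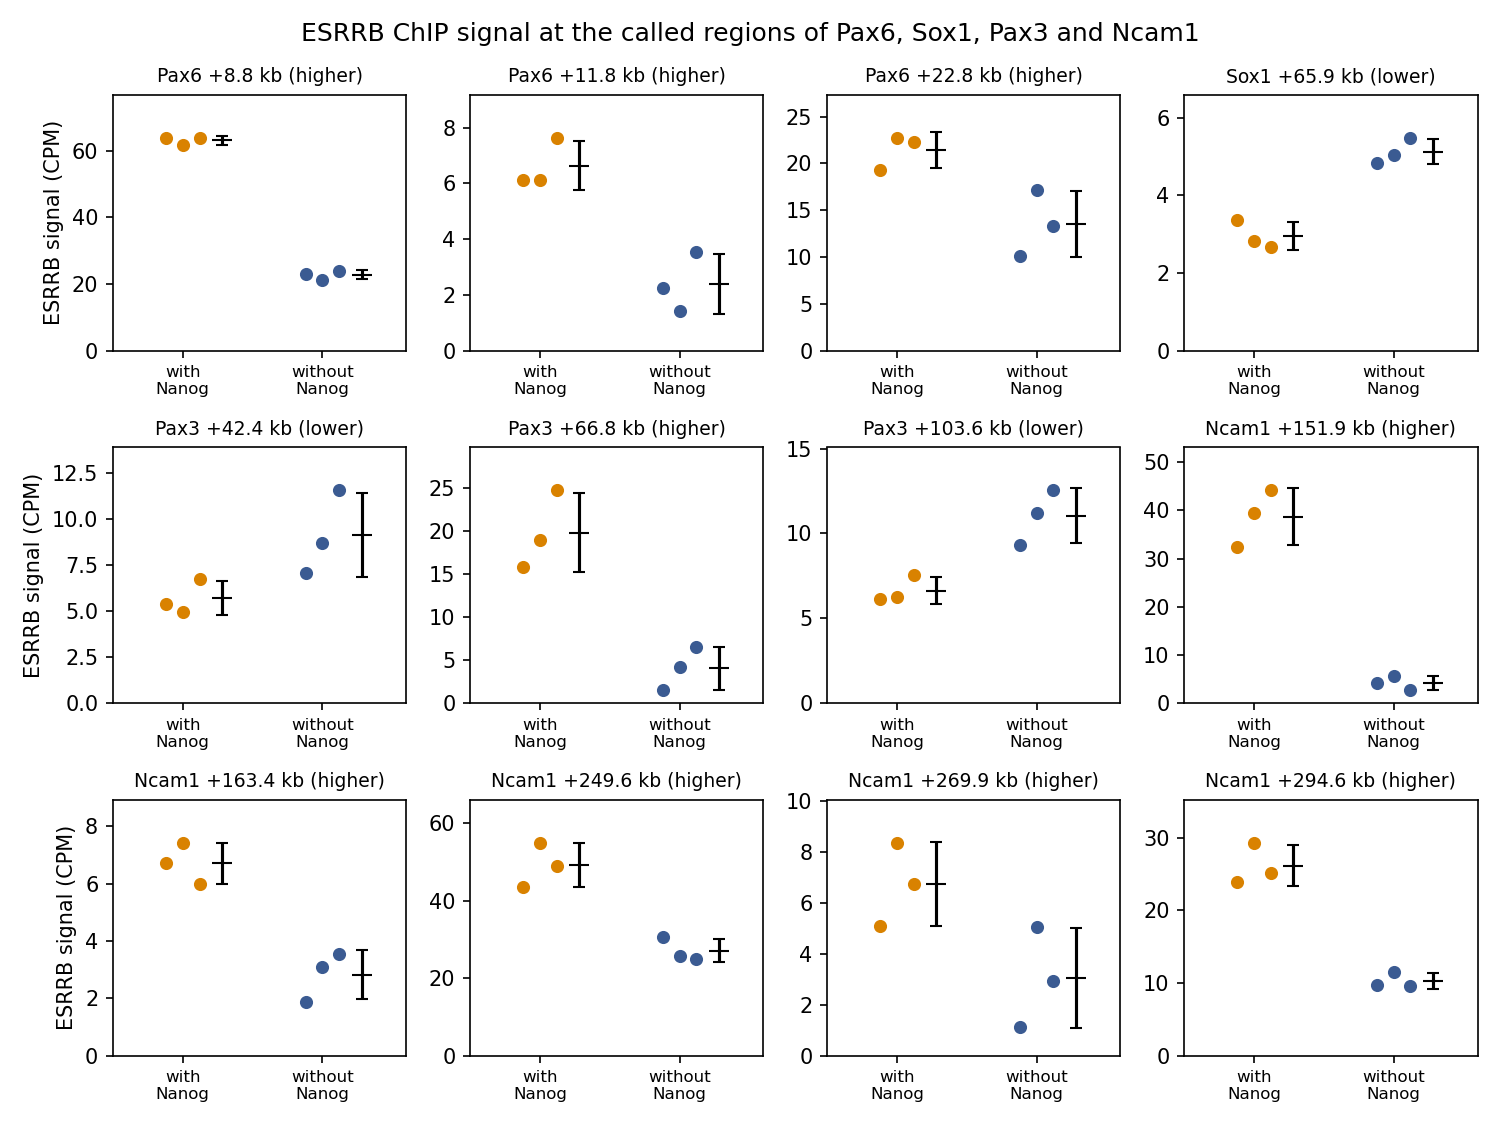
ESRRB signal in CPM (y axis, from 0) at the 12 called regions in the 3 libraries with Nanog (orange, left) and the 3 without (blue, right). Panels are named by gene and by kb from the lower-numbered end of the gene, points are libraries, and the dash with bars is the mean ± SD. The libraries of the lines do not overlap in any of the 12 panels.

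The ranges of the 2 lines did not overlap in all 12 called regions. Counting every tested region, 15 of 59 were higher with Nanog with no overlap and 8 lower, and over the whole table such regions made up 17.0% and 16.8%. Of the higher ones, 6 were at Ncam1, 4 at Pax6, 4 at Sox1 and 1 at Pax3. Of the lower ones, 6 were at Pax3, 1 at Sox1 and 1 at Ncam1. These counts describe the same contrast as the calls and are not further evidence.

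**Figure D2:**
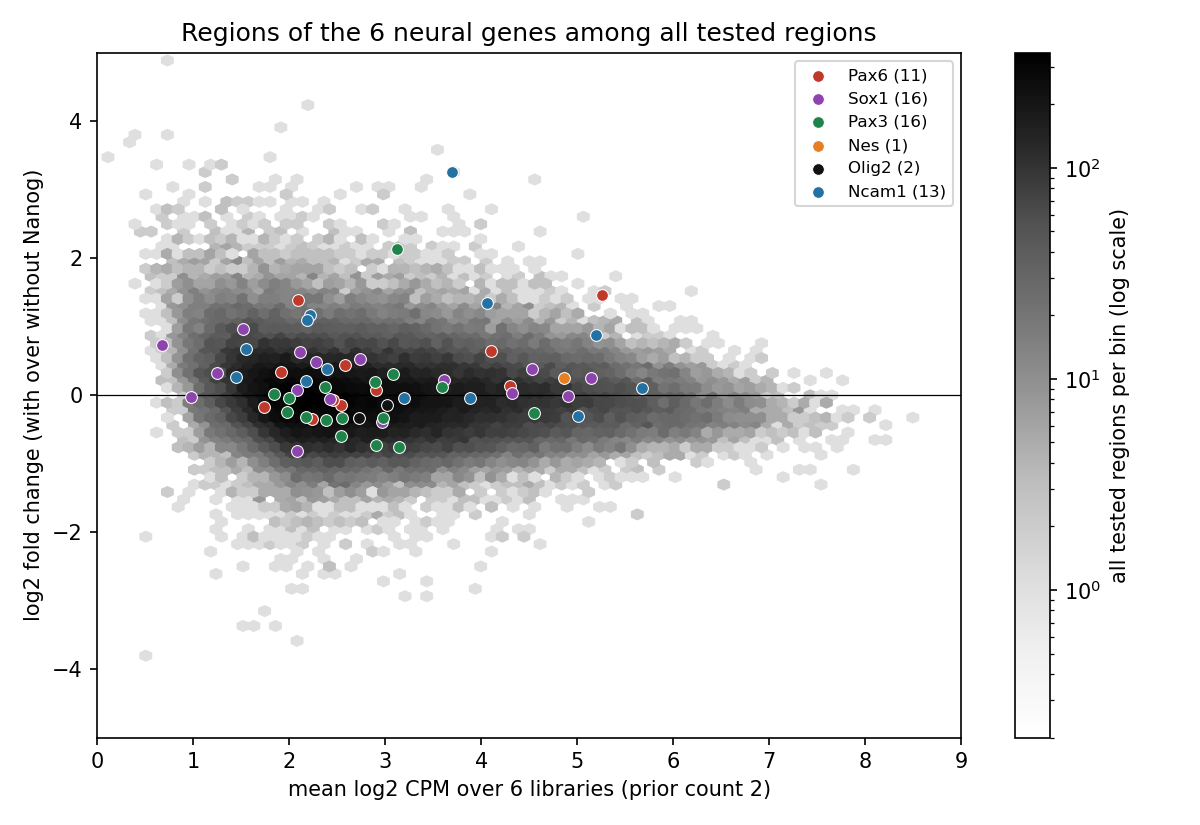
Log2 fold change (with over without Nanog, y axis) against mean log2 CPM over 6 libraries (x axis). Grey hexagons count all 84892 tested regions on a log scale, and coloured points are the 59 tested regions of the 6 genes. Most coloured points lie in the body of the cloud, and the Ncam1 region at 3.27, the Pax3 region at 2.14 and the Pax6 region at 1.47 stand near its upper edge.

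The deposited peak lists place 18 of the 61 regions in both lists, 43 in the list with Nanog alone and 0 in the list without Nanog alone. All libraries with Nanog hold more reads in regions than any without, and the effect of this depth on the lists was not tested. Over the whole table the shares were 37.8%, 61.4% and 0.806%, against 29.5% and 70.5% of the 61 regions in the first and second class. Tested regions in both lists were wider, with a median of 673 bp against 290 bp, and stronger, with a median of 23.5 CPM with Nanog and 19.7 CPM without. Those in the list with Nanog alone had medians of 5.06 CPM with Nanog and 4.31 CPM without Nanog. Of the 9 higher calls, 6 were in the list with Nanog alone, among them the Ncam1 region at +151.9 kb and the Pax3 region at +66.8 kb. Among all higher calls of the table, 5584 of 7997 (69.8%) were in that list alone. The 3 others, at Pax6 +8.79 kb and Ncam1 +249.6 and +294.6 kb, were in both lists at an overlap of 1 bp. At a reciprocal overlap of 50%, 14 regions remained in both lists and both Ncam1 regions moved to the list with Nanog alone. That list alone then held 45 of the 59 tested regions and 8 of the 9 higher calls. The share of the whole table at this overlap is not given here. Of the 3 lower calls, 2 were in the list with Nanog alone and 1 was in both, at either overlap. Of the 8306 lower calls of the table, 992 were in the list with Nanog alone and 6778 in both, at 1 bp. A place in the list with Nanog alone is thus not in itself a gain of signal. The lists come from the same libraries, so they are no independent check of the calls.

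The rule leaves out regions that lie within 100 kb of a gene but nearer to a neighbour, and there were 29 of these. At Nes they numbered 21, at genes such as Bcan and Crabp2, and 1 was called higher and 1 lower. At Pax6 there was 1, inside Elp4, a neighbour whose introns are known to hold distant Pax6 enhancers, and it was not called, with 3.21, 2.71 and 3.44 CPM with Nanog and 4.85, 1.12 and 2.75 CPM without Nanog. Just inside the rule at Sox1, the region 84.2 kb past the gene held 23.2, 28.3 and 26.5 CPM with Nanog and 21.6, 17.7 and 20.6 CPM without. Just outside it, 87.4 kb past Sox1 and 86.1 kb from Spaca7, a region held 22.0, 23.9 and 24.8 CPM with Nanog and 12.3, 14.9 and 14.1 CPM without Nanog, and was called higher.

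Relatives of these genes in the same families showed calls in both directions as well. Over all tested regions 9.42% were called higher and 9.78% lower, and no reading about the families is drawn from the counts. Pax5, a B cell and midbrain factor of the PAX family, had 3 higher calls among 15 tested regions, and Pax2, Pax7 and Pax8 had 1 each among 16, 8 and 7. Pax1 had 1 higher and 1 lower call among 8, and Pax9 had no call among 4. Pax4 had no region assigned to it. In the SOXB1 family, Sox2 had 3 lower and 0 higher calls among 31 tested regions and Sox3 no call among 2. Olig3 had 1 higher call among 6, and Olig1 had no region assigned to it. Ncam2, the paralogue of Ncam1, had 1 lower and 0 higher calls among 5 tested regions.

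A wider list of 61 neural genes that excludes the 6 was also read from the same fit, and 56 of them had a region. Of 511 tested regions, 80 (15.7%) were called higher and 38 (7.44%) lower, with a median log2 fold change of 0.09. Over all tested regions 9.42% were called higher and 9.78% lower, and the median was -0.01. Among 35 neural transcription factors, 44 of 303 regions were higher and 24 lower, with a median of 0.08. Among 12 proneural and Notch genes, which act in the choice between progenitor and neuron, 27 of 121 were higher and 8 lower, with a median of 0.26. Among 14 genes of the neural cytoskeleton, adhesion and glia, 9 of 87 were higher and 6 lower, with a median of -0.04. Of the 56 genes, 34 had a higher call, 20 a lower call, 12 both and 14 no call. It takes in Sox2, Sox3, Olig3, Ncam2 and several Pax genes of the paragraph above. The list was drawn up with results of these data known and was given no test as a set.

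**Figure D3:**
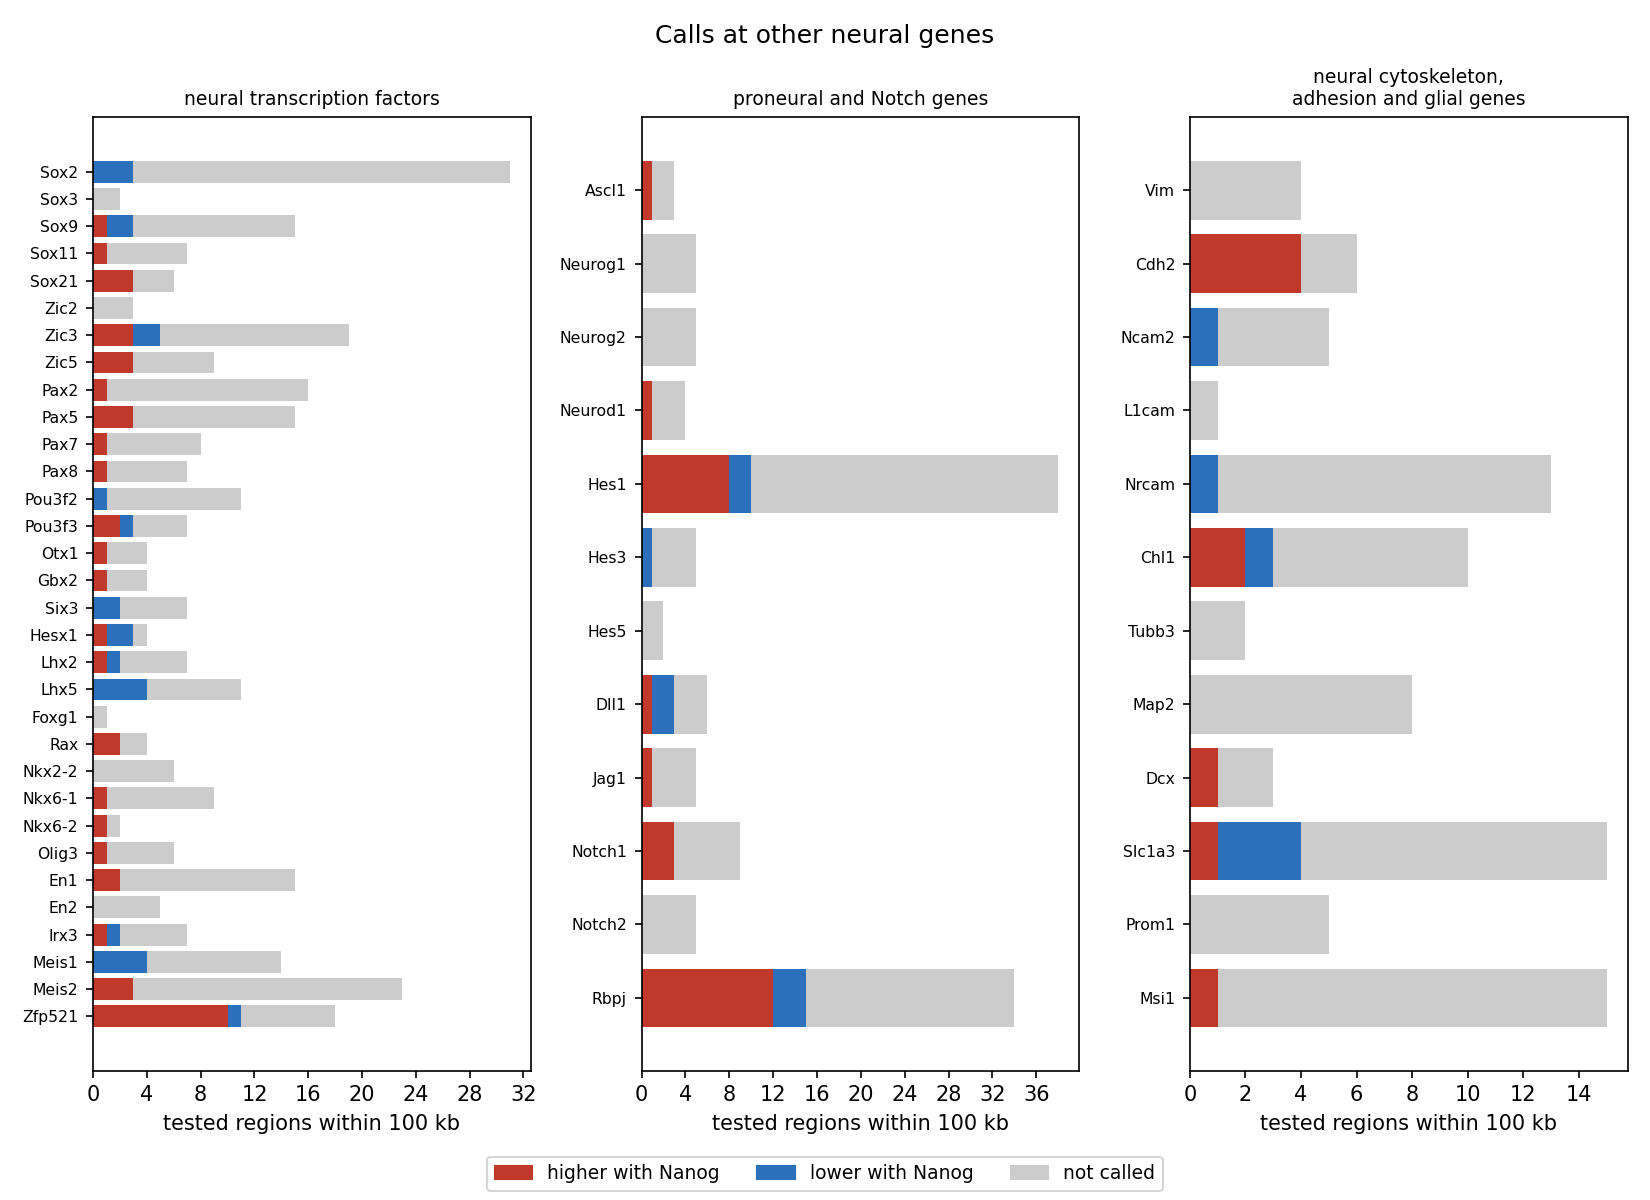
Number of tested regions within 100 kb (x axis) called higher with Nanog (red), lower with Nanog (blue) and not called (grey) for each gene of the 3 neural lists with a tested region. Rbpj, Zfp521 and Hes1 have the most higher calls, with 12, 10 and 8, and most genes have few calls or none.

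Regions of other genes with the most similar pattern were sought by the Euclidean distance of log2 CPM over the 6 libraries, each region centred on its own mean. For the Pax6 region at +8.79 kb they were at Adamts8, Kat6b, Ina, Msi2 and Aldh3a2, with distances from 0.11 to 0.18 and log2 fold changes from 1.39 to 1.73. For the Ncam1 region at +151.9 kb they were at Adamts8, Hmga2, Elmo1, Klf10 and Zmat4, with distances from 0.49 to 0.76 and log2 fold changes from 2.93 to 3.91. Different regions of Adamts8, a secreted metalloprotease gene, came closest to both. The 6 libraries fall into 2 lines and share their scaling, so likeness here is mostly a like size of change between the lines.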

How the data were processed

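ESRRB ChIP-seq counts were analysed for 3 libraries of each line. The deposited table holds whole-number read counts per region, not normalised, per the file headers and values, and each of its columns names a line and a letter, so columns were matched to a line and not to a numbered replicate. Submitters' processing notes name Bowtie2, SAMtools 1.4.1, MACS2, bedtools 2.26.0 and mm10. No source used here gives the peak threshold, the counter or the handling of duplicates. The peak lists of the authors carry positions without scores. The 6 input libraries were not used here.

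The members and gene lists were chosen with earlier results of these data known. Regions were assigned by centre to the nearest protein-coding gene span of RefSeq GRCm38.p6, and coordinates are 1-based. All regions were fitted together with edgeR 4.0.16 in R 4.3.3 (filterByExpr, TMM, glmQLFit and glmQLFTest on line, no block), leaving 84892 of 86201. The SE is the fold change over the root of its F statistic, and log-CPM was taken with a prior of 2 counts. Regions given in full are each gene's strongest by mean log-CPM, every called one and that nearest a start or end, with a few others chosen after their values were seen. A peak counted as in a list from 1 bp of overlap. Alternatives were DESeq2 1.42.0, other scalings and filters, thinning, a block by letter, each library left out, and other distances and overlaps.

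Replicate libraries differed beyond sampling noise in every pair (chi-square over its degrees of freedom, 1.33 to 2.51). The fit was tested on simulated data over 84892 regions for the comparison with against without Nanog. Calls were made for 5 of 67 regions altered 1.5-fold, for 37 of 67 altered 2-fold, for 62 of 66 altered 4-fold and for 2 of 84692 left as they were. Far fewer regions were altered there than the 19.2% called in the data, which makes the adjusted threshold stricter in the simulation. These rates, that of false calls included, therefore do not carry over to the data.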

Additional observations from a re-analysis of the deposited data

How the results depend on the processing

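At the 6 genes, 9 higher and 3 lower calls became 9 and 1 with DESeq2 or with a loess offset, 6 and 0 at a mean count of at least 50 with 19 regions tested, and 7 and 0 with libraries thinned to the smallest total. At an unadjusted p under 0.05, edgeR gave 1 lower region at that minimum and 2 after thinning. With any 1 library removed, 7 to 9 regions were higher and 0 to 3 lower, with 0 lower without library A or B with Nanog or library C without Nanog, where 3, 4 and 3 lower regions had an unadjusted p under 0.05. Of the 12 called regions, 6 were called in every one of the 14 alternative fits that tested them, 6 lost the call in at least 1, and none (0) changed sign. The 6 that were always called are Pax6 +8.79 and +11.8 kb, Pax3 +66.8 kb and Ncam1 +151.9, +249.6 and +294.6 kb. Within 50 kb, where fewer regions are counted, other neural genes had 59 higher and 22 lower calls, against 80 and 38 within 100 kb. A replicate block by column letter gave 10 higher and 3 lower calls, the added one at Sox1, 84.2 kb past the gene. No label explains the letters, so they were not taken as pairs in the main fit. Same-letter correlations of deviations between the lines were 0.083, 0.223 and 0.128, and those between different letters were lower, from -0.159 to 0.045. Over the whole table the block gave 10095 higher and 10825 lower calls, against 7997 and 8306 without it. What the letters share was not tested. Low read counts limit the precision at weak regions, and the cause of the lost calls was not tested.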

Other observations

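Among the other neural genes, several had many calls, and those given here were chosen after their values were seen. Their counts are thus extremes of the list. Of all tested regions 9.42% were called higher and 9.78% lower. Rbpj, the DNA-binding effector of Notch, had 12 higher and 3 lower calls among 34 tested regions. Its largest increase, outside the gene at chr5:53505492-53506063, held 28.1, 32.1 and 28.5 CPM with Nanog and 5.59, 8.41 and 3.53 CPM without Nanog, while its strongest region held 110, 83.6 and 99.1 CPM with Nanog and 139, 112 and 113 CPM without, and was called lower. Hes1, a Notch target that restrains neurogenesis, had 8 higher and 2 lower calls among 38, and its strongest region, 2.06 kb from the gene, was not called. Zfp521, a zinc finger factor of early neural differentiation, had 10 higher and 1 lower call among 18. Cdh2, which encodes N-cadherin, had 4 higher and 0 lower calls among 6. Meis1 and Lhx5, homeobox factors, each had 4 lower and 0 higher calls, among 14 and 11 tested regions.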
